A study of Mus musculus with 16 samples.

Results

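The genes described here encode the proteins of the cytosolic ribosome in oligodendrocytes, the myelin-forming cells of the brain, together with their expressed copies and paralogs. They were chosen by symbol alone: Rpsa, Rplp0, Rplp1, Rplp2 and every symbol made of Rpl or Rps and a number, leaving out the S6 kinases, a binding protein of Rps19 and symbols that carry the pseudogene suffix. The rule found 89 of the 32207 genes in the table. Of these, 31 encode the standard proteins of the small subunit, 43 those of the large subunit and 3 those of the stalk, and 12 are copies or paralogs. A filter on low counts left 85 of them, among 16339 genes in all, for the tests. The 4 that did not pass it, Rpl32l, Rps27rt, Rpl6l and Rpl39l, are all copies or paralogs.

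The libraries came from the brains of OF-1 mice, an outbred stock, on postnatal day 16. Male and female control pups are given only as controls. The exposed pups received bisphenol A (BPA, a plasticizer that binds oestrogen receptors) through their mothers' drinking water from gestational day 7 and through lactation, at 40 µg/kg/day by the submitters' estimate, which was not checked here against the concentration they give for the water. Each of the 4 groups (male control, female control, male BPA, female BPA) had 4 libraries, made from polyadenylated RNA of cells sorted with magnetic beads for the surface antigen O4, which late precursors and oligodendrocytes carry. Litters are not given in the labels, so whether pups of 1 group shared a mother is not known, and the p-values below measure the spread between libraries only.

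The libraries held 23603816 to 42575326 counts, of which 54017 to 102915 fell on the 89 genes. Mbp, the gene of myelin basic protein, alone took 1.36 to 1.98% of the counts in each library. None of the marker genes looked at for oligodendrocytes, precursors, microglia, astrocytes, neurons, vessels, ependyma or blood was at 0 throughout. Summed astrocyte markers reached 5998 CPM (counts scaled to 1000000 per library) in male BPA library 2 and 1182 to 2612 CPM in the others. Summed blood markers were highest in female BPA library 1, at 4897 CPM, against 825 to 3454 CPM elsewhere. No pair of libraries held identical values.

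A ribosome is built of a small subunit, which reads the messenger RNA, and a large subunit, which joins the amino acids; the stalk, a flexible arm of the large subunit made of Rplp0, Rplp1 and Rplp2, recruits the translation factors. Nearly every protein is needed in the same number of copies, so the genes are known to be expressed together, and their messages begin with a tract of pyrimidines through which growth signals such as mTORC1 control translation. In myelinating cells the ribosomes serve a high output of membrane proteins. Mammalian genomes carry many reverse-transcribed copies of these genes, and a sequencing read from a stretch that 2 copies share cannot be assigned to either by sequence.

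How closely such copies can resemble each other is shown by the 2 pairs on which the largest differences between libraries turned. Rps3a1, on chromosome 3, encodes a small subunit protein beside the exit of the messenger RNA; Rps3a3 is an intronless copy on chromosome 13 that GENCODE M21 lists as a processed pseudogene inside Pde4d. Over 795 aligned bases they differed at 9, an identity of 98.9%. They are not each other's closest match in the search for shared words described below. There each shared the most words with Rps3a2, which is not among the genes described here. Rpl26, on chromosome 11, encodes a large subunit protein beside the exit of the nascent chain; Gm15772, a copy on chromosome 5 that the symbol rule does not take in, matched it at 99.5% of 438 aligned bases, with 2 mismatches. For each pair the 150 bases with the most mismatches follow, from the GRCm38 transcripts, with the mismatched bases in capitals. The Rps3a1 stretch is bases 347 to 496 of its transcript (gene at chr3:86137940-86142702, minus strand), within the coding part, and the Rps3a3 stretch lies at chr13:108670816-108670965, plus strand. The Rpl26 stretch is bases 267 to 416 of its transcript (gene at chr11:68901583-68906989, plus strand), also coding, and the Gm15772 stretch lies at chr5:3236569-3236718, plus strand.
Rps3a1: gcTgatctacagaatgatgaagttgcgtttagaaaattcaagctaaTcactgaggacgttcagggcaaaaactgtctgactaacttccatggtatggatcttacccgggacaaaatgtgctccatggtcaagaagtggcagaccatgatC
Rps3a3: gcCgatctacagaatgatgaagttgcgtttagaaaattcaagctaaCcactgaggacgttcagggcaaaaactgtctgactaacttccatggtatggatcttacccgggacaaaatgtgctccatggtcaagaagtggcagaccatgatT
Rpl26: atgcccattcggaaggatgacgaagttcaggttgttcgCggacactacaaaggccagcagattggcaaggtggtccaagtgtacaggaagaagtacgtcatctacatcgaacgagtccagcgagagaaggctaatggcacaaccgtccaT
Gm15772: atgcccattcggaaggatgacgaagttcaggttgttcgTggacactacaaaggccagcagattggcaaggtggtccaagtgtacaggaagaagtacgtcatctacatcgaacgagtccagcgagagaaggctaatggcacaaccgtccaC

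Few counts fell on these genes as a whole. The 89 together took 0.212 to 0.274% of a library's counts, against the 1.36 to 1.98% of Mbp alone. Large subunit genes took 0.0950 to 0.120%, small subunit genes 0.0889 to 0.116% and the 3 stalk genes 0.0218 to 0.0329%. The 12 copies and paralogs held 0.00604 to 0.00949%, and the 221 further rows whose symbols carry the pseudogene suffix held 0.00509 to 0.00907%. The share of all 89 genes averaged 0.243% ± 0.0230 (SD, n = 4) in male controls, 0.237% ± 0.0155 in male BPA libraries, 0.244% ± 0.0186 in female controls and 0.251% ± 0.0250 in female BPA libraries. These 4 ranges overlapped, and the means differed by no more than the spread within a group, as the plot of shares of counts shows. In these bulk libraries fewer cells of a type and less RNA per cell cannot be told apart.

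**Figure D1:**
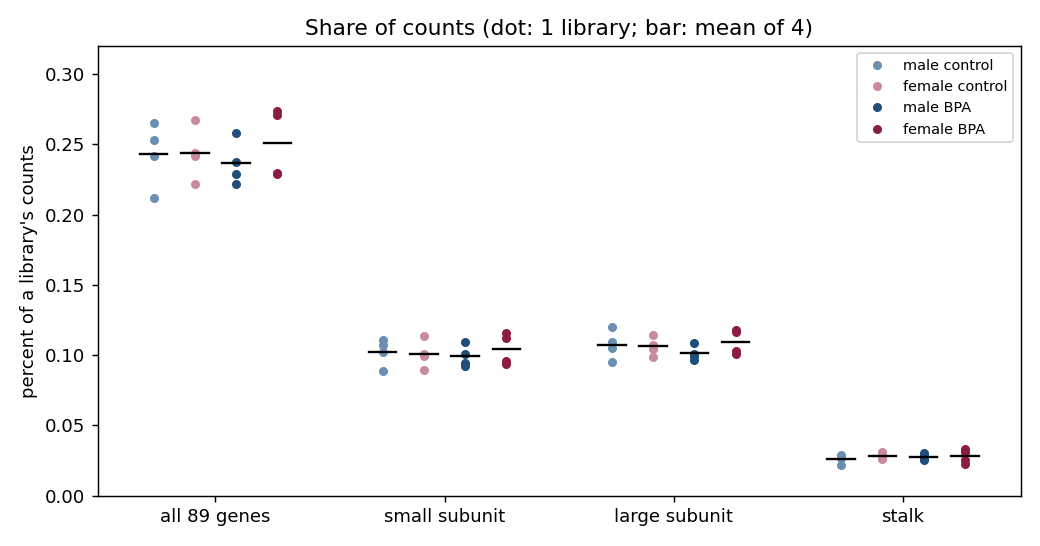
Share of each library's counts on all 89 genes and on the small subunit, large subunit and stalk genes, in percent (y axis), by group. A dot is 1 library and a bar the mean of 4; the 16 libraries lie between 0.212 and 0.274% for all 89 genes, and the groups overlap.

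Although the proteins are needed in equal numbers, the counts per gene were far from equal. On the authors' length-scaled scale, which divides normalized counts by the median transcript length in kilobases and so allows genes to be compared, the 77 standard genes spanned 613-fold. Rpl4, a large subunit protein of the exit tunnel, stood highest at 12154 ± 740 (SD over 16 libraries). It was followed by Rps3, at the entry of the messenger RNA, with 8703 ± 530, by the stalk protein Rplp1 with 8656 ± 1340 and by Rpl8 with 7998 ± 447. In this order Rps3 and Rplp1, and Rplp1 and Rpl8, did not differ beyond their spread. Rps15, also among the highest small subunit genes, had 4898 ± 571, and Rpl22, next among large subunit genes, had 4631 ± 306.

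The other 2 stalk genes, Rplp0 and Rplp2, had 4445 ± 262 and 3616 ± 565. Rpsa, which also serves as a laminin receptor at the cell surface, stood much lower, at 144 ± 18.6. Rpl5 and Rpl11, which bind Mdm2 and stabilize p53 when ribosome assembly is disturbed, had 488 ± 56.5 and 208 ± 24.5. Among the 4 standard genes on the X chromosome, Rps4x had 868 ± 86.2, Rpl39 had 757 ± 123, Rpl10 had 320 ± 54.2 and Rpl36a had 113 ± 22.4.

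At the bottom of the standard genes stood Rpl38, known for its part in patterning the embryonic skeleton, with 19.8 ± 8.19, and Rpl24, which bridges the subunits, with 23.6 ± 8.67. Rpl17 had 29.7 ± 5.56. The lowest small subunit genes were Rps29 with 25.2 ± 6.85, Rps16 with 25.5 ± 6.31 and Rps6, the classic target of the S6 kinases, with 51.3 ± 9.50. None of these low values differed from its neighbours in the order beyond the spread over libraries.

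**Figure D2:**
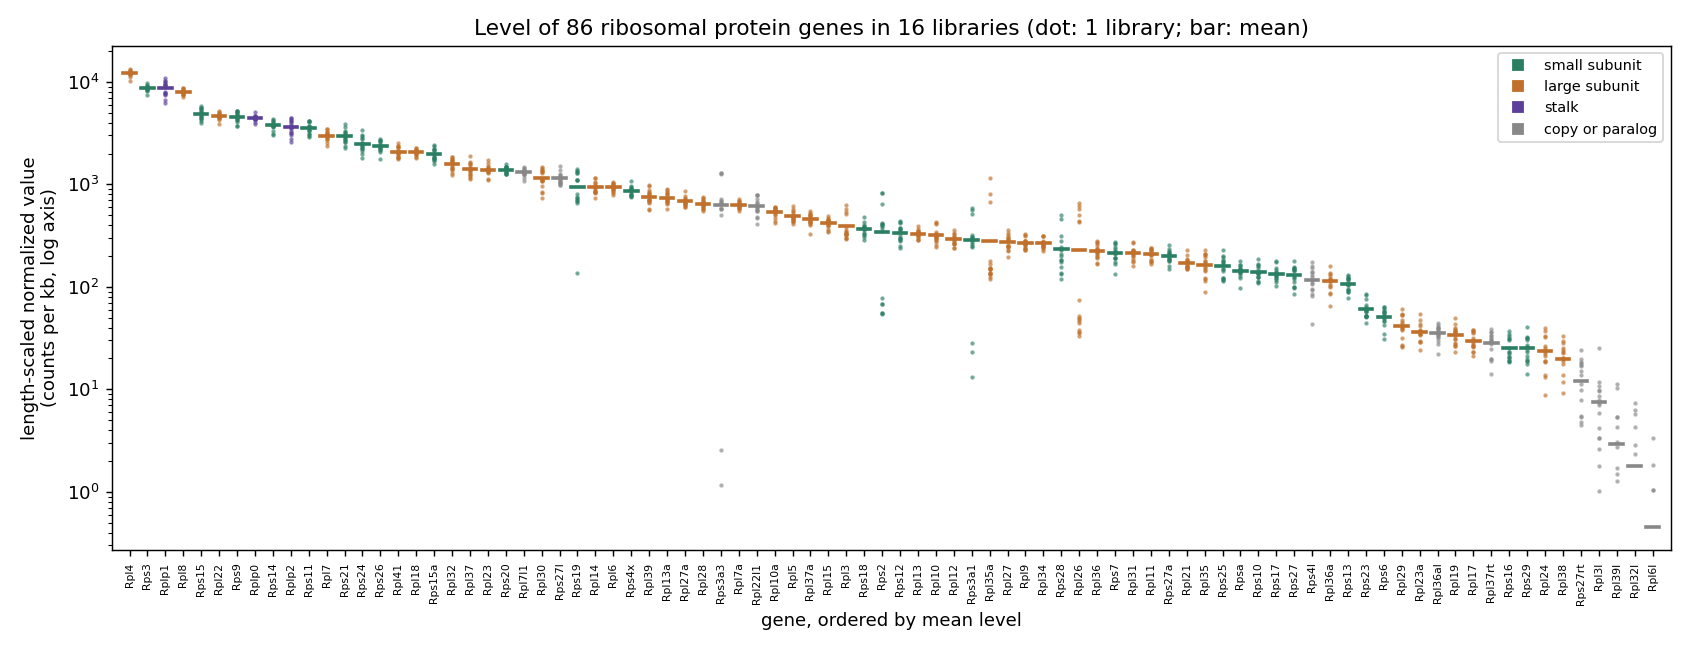
Length-scaled normalized value (y axis, log scale) of 86 of the 89 genes, ordered by mean level (x axis). A dot is 1 library, a value of 0 is not drawn, and a bar is the mean of 16; the standard genes run from Rpl4 at 12154 to Rpl38 at 19.8, and Rps3a1, Rps3a3, Rps2, Rpl26 and Rpl35a split into separated levels.

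The order of levels went with how much sequence a gene shares with others. All transcripts of GENCODE M21 were searched, on the transcript's strand, for each word of 50 bases in a gene's principal transcript. Of the 77 standard genes, 76 shared at least 1 word with another gene or pseudogene, and the median gene shared 44.7% of its words. The 6 genes that shared under 10% had a median level of 5863, from Rps20 at 1390 to Rps3 at 8703. The 39 genes that shared 10 to 50% had a median of 757, and the 32 that shared over 50% had a median of 271. The Spearman correlation of level and shared words was -0.53 across these 77 genes, given as a description: the genes come from the same 16 libraries and are not independent replicates. How the authors' counting treated reads that match several places is not given in the sources used here, so a low level of a gene with many copies cannot be read as a low level of its messenger RNA. There were exceptions in both directions, as in the plot of level against shared sequence: Rplp1 shared 60% of its words and yet stood among the highest, while Rpl38 shared 40.2% and ranked last of the standard genes.

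**Figure D3:**
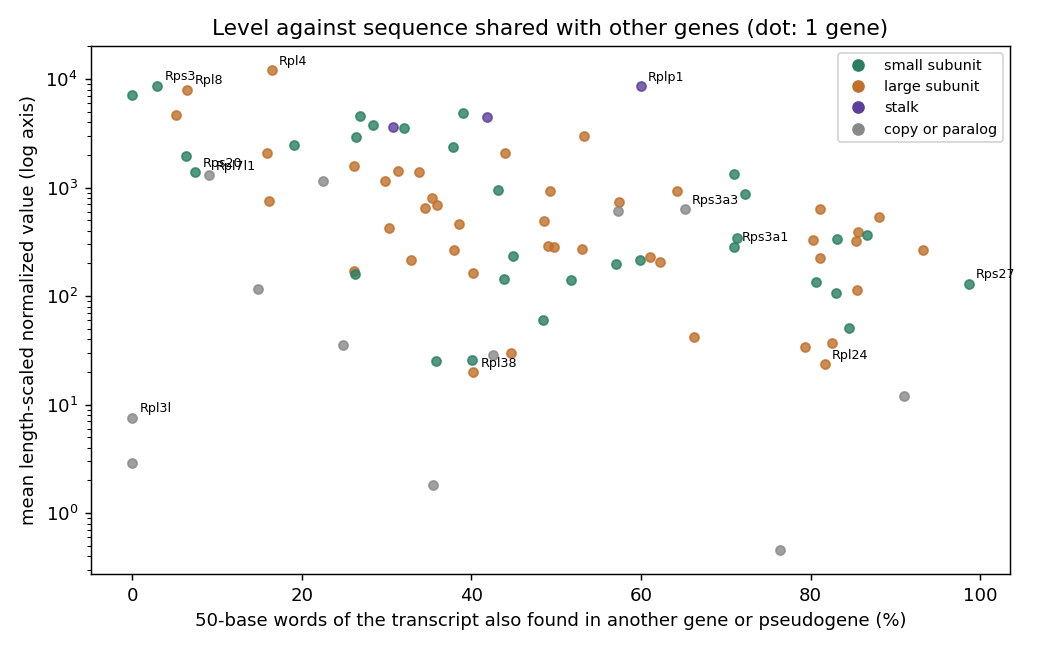
Mean length-scaled normalized value over 16 libraries (y axis, log scale) against the percent of a gene's 50-base words that occur in another annotated gene or pseudogene (x axis); a dot is 1 gene. Medians fall from 5863 in the 6 standard genes under 10% to 271 in the 32 above 50%.

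The start sites were compared with those of all genes in the RefSeq promoter table of this reference (GRCm38), in which 66 of the 89 genes had a window. The run looked for was a C followed by at least 4 bases that are C or T, on the gene's strand. It stood exactly at an annotated start in 15 of the 66 genes (22.7%), against 813 of 27025 genes in all (3.01%). A gene with several annotated starts was counted if any of them matched. Allowing the run to begin within 10 bases of the start gave 60.6% against 34.4%. A match describes letters only, and a start annotated a few bases away from the true one would miss it.

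A few of these genes took separate levels in different libraries of the same group. Rps3a1 and its copy Rps3a3 did so in opposite directions. In male controls Rps3a1 had 16.7, 7.21, 16.0 and 14.7 CPM in libraries 1 to 4, and Rps3a3 had 0.0274, 13.6, 0 and 0.0590 CPM in the same order; for library 3 the count of 0 allows up to 0.0996 CPM (3 counts). In female controls Rps3a1 had 0.663, 8.54, 7.81 and 8.75 CPM, and Rps3a3 had 29.3, 15.4, 13.3 and 14.9 CPM. In male BPA libraries the values were 7.41, 7.02, 8.24 and 0.380 CPM for Rps3a1 and 13.3, 11.9, 15.8 and 29.7 CPM for Rps3a3.

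Female BPA libraries had 9.25, 8.11, 8.76 and 0.805 CPM of Rps3a1 and 15.5, 16.5, 15.9 and 30.2 CPM of Rps3a3. So 3 libraries, all male controls, had next to no Rps3a3 and the most Rps3a1, 3 libraries from the 3 other groups had the most Rps3a3 and under 1 CPM of Rps3a1, and the other 10 lay between on both. No library had high values of both. Their sum ran from 14.8 to 31.0 CPM. Rps3a1 shared 659 words with 9 other genes and pseudogenes, 570 of them with Rps3a2. Rps3a3 shared 486 words with 8, 439 of them with Rps3a2. The sum leaves out Rps3a2 and the others, so it need not hold all reads that fit either gene.

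Rpl26 was low in 10 libraries, at 0.549 to 1.23 CPM, and 7.08 to 10.8 CPM in the other 6, which came from all 4 groups: male controls 1 and 4, female control 2, male BPA 2 and 4, and female BPA 2. Its copy Gm15772 had 4.36 to 7.33 CPM in those 6 libraries and 8.58 to 12.8 CPM in the 10 others. As with the first pair, the copy was lowest where the gene was highest.

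Rps2, a small subunit protein at the entry of the messenger RNA, had 1.56, 11.4, 23.1 and 9.92 CPM in male controls and 2.17, 23.1, 11.001 and 11.3 CPM in female controls. In male BPA libraries it had 11.5, 1.54, 1.91 and 1.55 CPM, and in female BPA libraries 11.8, 10.6, 18.2 and 1.91 CPM. Each group held at least 1 library of about 2 CPM and at least 1 above 9 CPM. The gene shared 71.3% of its words with 71 other genes and pseudogenes.

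Rpl35a, a large subunit protein, had 1.77 to 2.68 CPM in 13 libraries. It reached 17.2 and 9.95 CPM in male controls 1 and 4 and 12.3 CPM in female control 4. All 3 high libraries were controls, and the other 5 controls lay within the range of the 8 BPA libraries.

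A measure of such steps, set after the values had been seen, was the largest gap between neighbouring libraries in the sorted log2 values (CPM plus 0.1), with at least 2 libraries on either side. A gap of 2-fold or more occurred in 5 of the 85 genes (5.88%), against 0.973% of all 16339 genes tested. The gaps were 75.3-fold for Rps3a3, 7.87-fold for Rps3a1, 5.41-fold for Rpl26, 4.41-fold for Rps2 and 3.61-fold for Rpl35a. In the other 80 genes the largest was 1.45-fold, for Rps28. These 5 also had the largest spread within groups. Rps19, mutated in Diamond-Blackfan anaemia, had its lowest value in female control 3, at 2.47 CPM against 11.9 to 25.8 CPM in the other 15. A gap with 1 library on a side is outside that measure. Within the measure, the largest gap of Rps19 was 0.419 on the log2 scale, less than 2-fold. The 8 libraries below that gap had at most 14.7 CPM. Those above it, all male controls among them, had 19.6 to 25.8 CPM. Both levels of Rpl26, and both low and high levels of Rps2, occurred in all 4 groups. Individual genotypes are not given in the labels. The part of read assignment between copies in these steps was not tested.

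**Figure D4:**
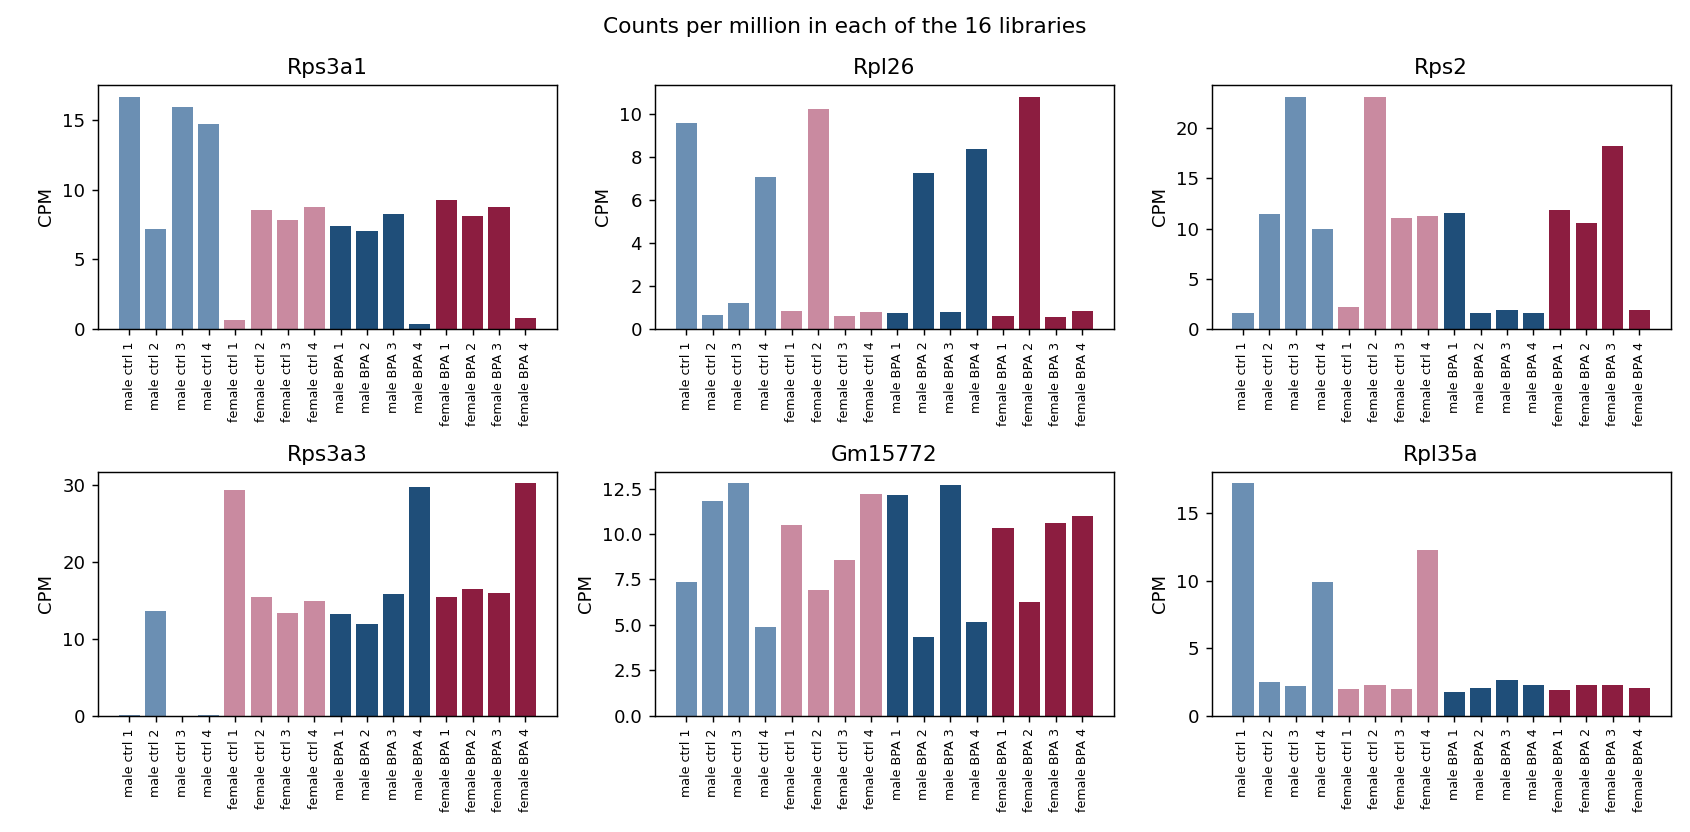
CPM (y axis) of Rps3a1 with its copy Rps3a3, Rpl26 with its copy Gm15772, Rps2 and Rpl35a in each of the 16 libraries (x axis, coloured by group). Rps3a3 is at most 0.0590 in 3 male controls and 29.3 to 30.2 in the 3 libraries where Rps3a1 is below 1.

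The first comparison asked which of these genes differed between BPA and control males. None of the 85 passed limma-voom's test at a Benjamini-Hochberg adjusted p under 0.05, which 1 of 16339 genes did (0.00612%), and limma-trend called none of the 85 either. At an unadjusted p under 0.05 there were 7 of 85 (8.24%), a share near the 7.96% of all genes. Of the 85, 34 were higher and 51 lower in BPA males, with a median log2 fold change of -0.04 (all genes 0.01). Of all genes, 52.5% were higher. Over the 14 alternative settings run for this comparison, the median of the 85 ran from -0.097 to 0.002. Lower values were found in 30 of 43 large subunit genes (median -0.08) and in 16 of 31 small subunit genes (median -0.01), and the difference between the subunits was not tested. The median half-width of a gene's 95% interval was 0.32 on the log2 scale. Estimates smaller than this mostly could not reach an unadjusted p under 0.05, and the adjusted threshold asks for larger ones.

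The smallest p in males belonged to Rps3a3, whose values are given above. The fitted change on the log2 scale was 6.87 ± 1.43 (SE, n = 4 against 4; limma-voom adjusted p = 0.234), and male control 2 lay within the range of the BPA libraries. Without male control 2 the fit gave 8.78, and the adjusted p over the alternatives ran from 0.179 to 0.567. For Rps3a1 the fit gave -1.94 ± 0.92 (limma-voom adjusted p = 0.631). For Rpl35a the change was -1.48 ± 0.71 and for Rps2 -1.48 ± 1.13, with overlapping groups in both; Rpl26 had -0.19 ± 1.12.

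Rpl10a, a large subunit protein found on only part of the ribosomes in some cells, had 13.2, 13.3, 13.1 and 12.5 CPM in control males and 10.0, 12.5, 11.8 and 9.44 CPM in BPA males. The highest BPA library lay just above the lowest control. The fit gave -0.26 ± 0.10 (log2, limma-voom adjusted p = 0.541). Rpl27 averaged 4.95 ± 0.400 against 3.91 ± 0.583 CPM (-0.36 ± 0.16, limma-voom adjusted p = 0.589).

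Rpl38 rested on very few counts. It had 0.220, 0, 0.0996 and 0.148 CPM in control males and 0.349, 0.274, 0.201 and 0.217 CPM in BPA males, where 3 counts correspond to 0.0747 to 0.118 CPM. The fitted value of 1.40 ± 0.53 (log2, limma-voom adjusted p = 0.526) fell to 0.70 without male control 2, the library at 0. Rps16 (-0.57 ± 0.25) and Rps28 (-0.84 ± 0.39), also among the 7, were both lower in BPA males at a limma-voom unadjusted p of 0.041 and 0.048. In each of them the ranges overlapped. Rps28 had 5.65, 5.16, 2.76 and 1.33 CPM in control males and 2.03, 1.54, 1.51 and 2.06 CPM in BPA males. Rps16 had 11 to 25 counts per library in control males and 10 to 15 in BPA males.

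The same comparison was made in females. None of the 85 genes, and 0% of all genes, passed the adjusted threshold in limma-voom; at an unadjusted p under 0.05 there was 1 of 85 (1.18%), against 4.55% of all genes. Higher and lower values were balanced, 44 to 41 (50.6% of all genes were higher), with a median log2 fold change of 0.00. The 1 gene was Rpl7l1, a paralog of Rpl7 known from early steps of large subunit assembly. It had 30.8, 33.0, 36.5 and 37.5 CPM in control females and 38.1, 41.9, 38.9 and 35.2 CPM in BPA females, a difference of 0.17 ± 0.06 (log2, limma-voom adjusted p = 0.999). The female BPA library 4 lay within the control range. In males Rpl7l1 had 38.2, 36.5, 36.7 and 37.1 CPM in control and 40.0, 38.7, 41.4 and 39.3 CPM in BPA libraries, which did not overlap, a difference of 0.10 ± 0.06 (log2, limma-voom adjusted p = 0.772).

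Small subunit genes came next in females. Rps13 had a mean of 2.98 ± 0.555 CPM in control females and of 3.62 ± 0.287 CPM with BPA (0.30 ± 0.16), Rps4x 19.7 ± 1.55 and 21.8 ± 1.96 CPM (0.15 ± 0.08), and Rps23, of the decoding centre, 1.05 ± 0.148 and 1.38 ± 0.2999 CPM (0.37 ± 0.19). In each of them the ranges overlapped, and each had a limma-voom adjusted p of 0.999.

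With the sexes averaged, none of the 85 genes passed, against 3 of all genes (0.0184%); 5 of 85 (5.88%) had an unadjusted p under 0.05, against 7.69% of all genes. The median log2 fold change was -0.01 (0.00 with relative log scaling), with 37 higher and 48 lower (51.2% of all genes were higher). Besides Rps3a3 (3.47 ± 0.74, limma-voom adjusted p = 0.203) these were Rpl7l1 (0.13 ± 0.05, limma-voom adjusted p = 0.470), Rpl27 (-0.26 ± 0.11), Rps4x (0.13 ± 0.06) and Rps27 (0.32 ± 0.15). Rps27, a zinc-binding small subunit protein, averaged 1.57 ± 0.349 and 1.54 ± 0.380 CPM in control males and females and 1.89 ± 0.166 and 1.97 ± 0.362 CPM in BPA males and females. It shared 98.6% of its words with other genes, the most of the 77.

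The difference of the BPA effect between females and males was tested as an interaction. None of the 85 genes and 0% of all genes passed; 6 of 85 (7.06%) had an unadjusted p under 0.05, against 4.72% of all genes. The effect was higher in females for 56 of the 85 genes, against 46.3% of all genes. The median difference was 0.08 on the log2 scale (all genes -0.02), and the interaction's median 95% half-width was 0.44. Rps3a3 had a difference of -6.80 ± 1.48, in which the 3 male controls without it take part. Among the others were Rpl10a (0.35 ± 0.14), Rpl15 (0.34 ± 0.14), Rpl27a (0.31 ± 0.13) and Rps19 (1.45 ± 0.64), each with a limma-voom adjusted p of 0.999. Without male BPA library 2 and female BPA library 1, which had the highest astrocyte and blood markers, the median difference was 0.03.

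**Figure D5:**
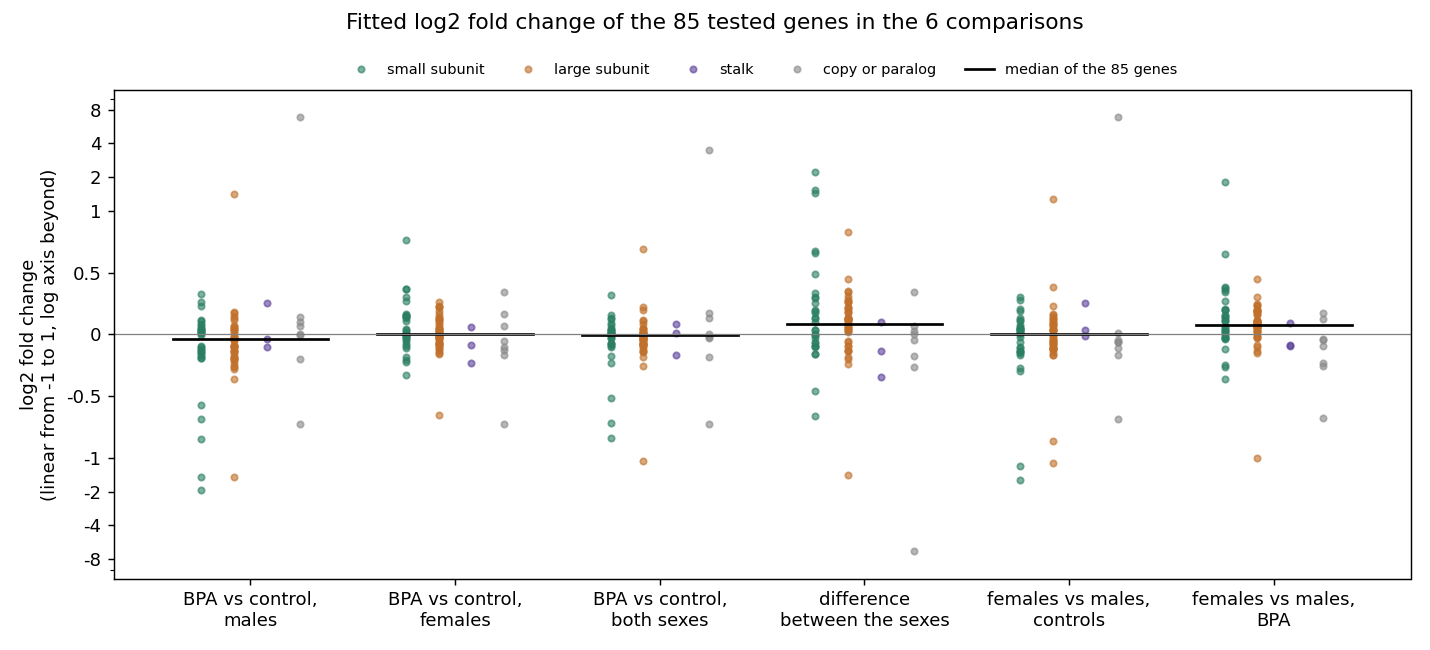
Fitted log2 fold change (y axis, linear between -1 and 1 and log beyond) of the 85 tested genes in the 6 comparisons (x axis), coloured by class; a dot is 1 gene and the black bar the median of the 85. Medians lie between -0.04 and 0.08, and Rps3a3 is the single gene beyond 3 in either direction.

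Sex was compared among controls and among exposed pups. In controls, females against males, none of the 85 genes passed, against 9 of all genes (0.0551%). At an unadjusted p under 0.05 there were 3 of 85 (3.53%), against 2.91% of all genes: Rps3a3 (6.93 ± 1.43, limma-voom adjusted p = 0.274), Rps19 (-1.18 ± 0.45) and Rpl38 (1.28 ± 0.53). Rps19 had 24.7, 23.5, 24.2 and 19.6 CPM in control males and 12.4, 14.7, 2.47 and 23.2 CPM in control females. Without female control 3 its log2 fold change was -0.49, and that of Rpl38 was 0.58 without male control 2. Rps3a1 followed with -1.56 ± 0.84, and -0.69 without female control 1. Rplp1 had 0.26 ± 0.15 (0.16 without male control 4), from 112 ± 18.1 CPM in males to 133 ± 10.5 CPM in females.

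The X-linked genes gave no call between the sexes. In controls Rps4x had a log2 fold change of 0.11 ± 0.08, Rpl10 of 0.17 ± 0.16, Rpl36a of -0.17 ± 0.21 and Rpl39 of -0.10 ± 0.16, females against males. The 95% interval of Rps4x ran from -0.07 to 0.29.

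Among exposed pups, females against males, again none of the 85 passed, against 8 of all genes (0.049%). There were 5 of 85 (5.88%) at an unadjusted p under 0.05, against 6.45% of all genes, all higher in females, among them Rpl10a (0.24 ± 0.10), Rpl15 (0.23 ± 0.10), Rpl17 (0.44 ± 0.20) and Rpl27a (0.20 ± 0.09). Higher values in females were found for 59 of 85 genes, against 48.5% of all genes, with a median of 0.08 (all genes -0.005). The median of the 85 was 0.01 without male BPA library 2 and female BPA library 1. Rpl15, of the large subunit, had 9.42, 8.12, 10.1 and 8.55 CPM in males and 11.02, 11.4, 10.1 and 9.15 CPM in females; Rpl27a had 12.1, 11.5, 12.3 and 11.9 CPM in males and 13.4, 13.8, 14.3 and 13.0 CPM in females, which did not overlap. The log2 fold change of Rpl15 was 0.15 without male BPA library 2 and female BPA library 1.

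The remaining named standard genes differed little with BPA. Rpsa had a log2 fold change of -0.19 ± 0.15 in males and 0.14 ± 0.14 in females, Rplp0 of -0.04 ± 0.06 and 0.06 ± 0.06, Rplp1 of 0.25 ± 0.15 and -0.08 ± 0.15, and Rplp2 of -0.10 ± 0.15 and -0.23 ± 0.15. The p53-linked Rpl5 had -0.08 ± 0.11 and 0.19 ± 0.11, and Rpl11 -0.09 ± 0.14 and 0.04 ± 0.14. Rplp0 was the most precisely measured of these, with a 95% interval from -0.17 to 0.09 in males and from -0.07 to 0.20 in females.

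The 41 tested standard genes outside the rule for naming spanned length-scaled levels from 34.2, for Rpl19, to 4573, for Rps9. Their log2 fold changes ran from -0.84 for Rps28, followed by -0.20 for Rpl30, to 0.23 for Rps25 in males and from -0.22 for Rps25 to 0.23 for Rpl19 in females. The intervals give how much change the 8 libraries of a sex leave room for. In males the whole 95% interval lay between -0.5 and 0.5 on the log2 scale for 51 of the 85 genes (18 small and 29 large subunit genes), in females for 54 and with the sexes averaged for 68. The narrowest was that of Rpl8, from -0.22 to 0.02 in males and from -0.18 to 0.07 in females. For the interaction 27 of the 85 intervals lay within those bounds.

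The copies and paralogs stood at quite different levels beside the genes they resemble. Rpl7l1 averaged 1307 ± 102 on the length-scaled scale against 2997 ± 298 for Rpl7. Rps27l, a p53 target, averaged 1146 ± 148 and stood above Rps27 with 130 ± 26.3, while sharing 22.4% of its words against 98.6% for Rps27. Rpl22l1, which can take the place of Rpl22, averaged 614 ± 115 against 4631 ± 306. Rps4l had 117 ± 33.5 against 868 ± 86.2 for Rps4x, Rpl36al 35.3 ± 5.78 against 113 ± 22.4 for Rpl36a, and Rpl37rt 28.4 ± 7.10 against 1416 ± 208 for Rpl37. GENCODE M21 lists Rps4l and Rpl37rt as transcribed processed pseudogenes.

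Rpl3l, which replaces Rpl3 in striated muscle, had 7.53 ± 5.82 against 389 ± 109, with no shared word and 129 counts over the 16 libraries. Rpl39l, known from testis, had 33 counts in all, Rpl32l 11, Rpl6l 6 and Rps27rt 72. Of these, Rpl32l and Rpl6l are listed as processed pseudogenes. None of the 8 tested copies and paralogs passed the test in any comparison. With BPA, Rpl22l1 had a log2 fold change of -0.20 ± 0.20 in males and -0.17 ± 0.20 in females, Rps27l of 0.00 ± 0.13 and -0.05 ± 0.13, and Rps4l of 0.00 ± 0.34 and 0.35 ± 0.33. Rpl36al had 0.14 ± 0.21 and -0.12 ± 0.21, Rpl37rt 0.07 ± 0.30 and -0.10 ± 0.31, and Rpl3l -0.73 ± 0.62 and -0.72 ± 0.69.

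Genes that work with the ribosome were counted from lists chosen by function. With BPA, none was called in either sex, in both or in their difference, of 30 translation factors, 23 assembly factors, 14 genes of ribosome quality control and 16 genes of mTORC1 and pyrimidine-tract control. Unadjusted p-values under 0.05 in males came to 2 higher and 3 lower translation factors and 1 lower assembly factor, against 7.96% of all genes in both directions together. In females they came to 1 higher and 2 lower assembly factors and no translation factor, against 4.55% of all genes. With the sexes averaged they were 3 lower translation factors and 3 lower assembly factors, against 7.69%, and for the interaction 2 higher and 2 lower translation factors and 1 higher assembly factor, against 4.72%. The lists for quality control and for mTORC1 had none in these 4 comparisons. The medians of these 4 lists in males lay between -0.02 and 0.02. Eef1g, a subunit of the elongation factor that delivers aminoacyl-tRNA, had a mean of 20.6 ± 1.26 CPM in control males and of 15.3 ± 1.84 CPM with BPA (-0.44 ± 0.10, limma-voom adjusted p = 0.271). Nap1l1, a histone chaperone of the assembly list, averaged 55.2 ± 2.31 and 46.9 ± 3.40 CPM (-0.24 ± 0.07, limma-voom adjusted p = 0.384).

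A single gene of these lists was called between the sexes. Eif2s3x, an X-linked subunit of the initiation factor that brings the first tRNA, averaged 7.72 ± 0.694 CPM in control females and 4.23 ± 0.656 CPM in control males (0.87 ± 0.12, limma-voom adjusted p = 0.00726). Among exposed pups the difference was 0.34 ± 0.12 (log2, limma-voom adjusted p = 0.735), and the interaction had a limma-voom adjusted p of 0.999.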

How the data were processed

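The analysed table holds, for each gene and library, whole-number counts, counts divided by 1 size factor per library, and those values divided by the median transcript length in kilobases, as deposited by the authors and stated in the labels. Per the submitters' processing notes, the tools were DESeq2 1.16.1, HTSeq 0.6.1p1, STAR 2.5.3a and bcl2fastq 2.20.0.422, and the build was mm39. The 16 columns of size-factor-normalized values were not used. Gene symbols were found for 31717 of 32207 identifiers.

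From the counts, genes with at least 10 counts (scaled to depth) in 4 libraries and 15 in total were kept, 99.9% of all counts. Trimmed-mean scaling, voom weights and a robust limma 3.58.1 fit over all 16 libraries (R 4.3.3) gave 6 contrasts, adjusted by Benjamini-Hochberg over 16339 genes and tested on simulated data. limma-voom stands in place of edgeR, which was not run, and DESeq2 was not run as an alternative. Counts of 0 are given with the limit of 3 counts, which covers counting error only. Members and lists were chosen with earlier results of these data known. Named are the 5 genes with the smallest p per contrast, the 3 highest and lowest levels per subunit, the 5 largest within-group spreads, the stalk, Rpsa, X-linked genes, Rpl5, Rpl11, every copy, and up to 3 genes per related list; Rps28 was added after its values were seen. Alternatives were other scaling, no filter, a replicate block, limma-trend, left-out libraries and fits on 8 libraries. A few genes that this rule names are not reported here.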

Additional observations from a re-analysis of the deposited data

Results flagged for a closer look

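Each of 168 groups of 4 libraries (41 named genes and the share of counts on all 89) was searched for a library far from the other 3. Dixon's ratio was used, at a limit that chance passes in about 5% of groups, and 14 were found. The 41 genes include those named for the largest spread within groups, so the 14 cannot be compared with that 5%. Rpl26 had 10.2 CPM in female control 2 (others 0.593 to 0.822) and 10.8 CPM in female BPA 2 (others 0.549 to 0.847). Rpl35a had 12.3 CPM in female control 4 (others 1.99 to 2.29), and Rps2 had 11.5 CPM in male BPA 1 (others 1.54 to 1.91). Rps3a1 had 0.663 CPM in female control 1, 0.380 CPM in male BPA 4 and 0.805 CPM in female BPA 4, each against over 7 CPM in the rest of its group. Rps3a3 had 29.3 CPM in female control 1 and 30.2 CPM in female BPA 4, against 13.3 to 15.4 and 15.5 to 16.5 in the rest, and 13.6 CPM in male control 2 against at most 0.0590.

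Single values also stood apart from their group in genes without a gap of 2-fold or more. Rps19 had 20.3 CPM in male BPA 2 (others 11.9 to 13.0). That level was not confined to this library. Male controls had 19.6 to 24.7 CPM of Rps19, female control 4 had 23.2 CPM, and female BPA 1 and 4 had 25.8 and 20.0 CPM. Rpl3l had 0.772 CPM in male BPA 2 (others 0.0543 to 0.174), the library with the highest astrocyte markers. Rps27l had 21.1 CPM in male BPA 3 (others 14.3 to 15.4) and Rps29 had 0.394 CPM in male control 2 (others 0.232 to 0.247).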

How the results depend on the processing

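The 6 counts of called genes were 0 under all 98 alternatives run, and the 30 fold changes recomputed kept their sign, with adjusted p above 0.05, in all 488 refits. Counts at an unadjusted p under 0.05 moved more: from 3 to 9 in males, 0 to 6 in females, 3 to 8 for both sexes, 3 to 9 for the interaction, 1 to 6 between control sexes, and 0 (without female BPA 1) to 13 (without female BPA 4) between exposed sexes. The share of counts moved by less than 1 SD in every setting. Leaving out 1 library gave 0.235 to 0.253% in male controls, 0.236 to 0.251% in female controls, 0.230 to 0.241% in male BPA and 0.243 to 0.258% in female BPA libraries. The labels number the libraries 1 to 4 in each group, but in 20 of 24 same-numbered pairs the deviations over 1000 genes did not correlate above 0.1. The highest correlation was 0.413, in a pair numbered 4, and the labels do not say what same-numbered libraries share. With a replicate block 0 genes were called in each comparison, and Rps3a3 had 5.58 in males. The edgeR and DESeq2 alternatives were not run. Low counts limit Rpl38, Rpl3l, Rpl24, Rps29 and Rps16, among others, and shared sequence limits most of the 77 standard genes.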
